A study of Mus musculus with 6 samples.

Results

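A set of 10 genes that fold proteins in the endoplasmic reticulum (ER) or respond to unfolded protein there was compared between wild-type and Robo1 knockout blood progenitors of the mouse. The genes were taken by symbol from a table of 18491 genes, in which all 10 were present on 1 row each: Calr and Canx, Pdia3, Pdia4, Pdia6 and P4hb, Atf4 and Ddit3, and Herpud1 and Sdf2l1. Bulk RNA-seq had been done on stem and progenitor cells of the blood, sorted from bone marrow, in 3 wild-type and 3 knockout libraries. The design text describes deletion of Robo1, a receptor for Slit guidance proteins, with Mx1-cre, a recombinase under an interferon-responsive promoter that poly(I:C) switches on and that acts in blood cells and in several other tissues. Mice had received 3 doses of poly(I:C), a double-stranded RNA that mimics a virus, and the protocol given for all 6 libraries places the sort 8 months later. Other labels of the same libraries differ: the titles read shCtrl and shROBO1, the genotype field reads WT and ROBO1 knockdown, and the treatment field reads scramble shRNA control for wild type and ROBO1, ROBO2 and ROBO3 knockdown for knockout libraries 1, 2 and 3. Groups follow the sample descriptions, WT and KO. The sources used here do not state whether wild-type mice carried Mx1-cre. Robo1 itself was not analysed here, so the labels were not checked against the targeted gene.

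Proteins that enter the ER are folded by lumenal chaperones; calnexin and calreticulin hold glycoproteins by their sugar chains, and protein disulfide isomerases form and rearrange disulfide bonds. When unfolded protein accumulates, the sensors encoded by Ern1 (IRE1), Eif2ak3 (PERK) and Atf6 act: IRE1 splices the Xbp1 message, PERK phosphorylates the initiation factor eIF2alpha and so favours translation of ATF4, and ATF6 and spliced XBP1 raise chaperone and degradation genes. In the blood system this response is known for its part in the survival of stem cells under stress and in cells with a large secretory load, such as granule-forming myeloid precursors and plasma cells.

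The 6 libraries held 42235077 to 58106099 counts, of which the 10 genes took 0.547 to 0.594% in wild type and 0.586 to 0.626% in knockout, ranges that overlapped. The lowest count of any of these genes in any library was 2009, so that counting error alone was a few percent of a value at most. Counts were more concentrated in knockout: the 100 most abundant genes took 59.7 to 60.8% of them, against 42.3 to 43.3% in wild type. TMM, a scaling robust to such composition that takes the bulk of genes as unchanged, gave factors of 1.44 to 1.52 in wild type and 0.66 to 0.69 in knockout, and the choice between TMM and total counts moved the median log2 fold change of the 15474 genes tested by -1.13, from -0.09 to -1.22. Levels and fold changes of the 10 genes are therefore given under both scalings, as CPM (counts scaled to library size, TMM-scaled or total). Among 11 stem and progenitor markers, all were detected, with Cd34 at 106 ± 4.54 and 102 ± 0.483 CPM (TMM, mean ± SD, n = 3 each) and Kit at 13.7 ± 1.77 and 16.9 ± 0.276 CPM in wild type and knockout; with total counts both were lower in knockout, at 158 ± 10 and 68.6 ± 1.53 CPM for Cd34 and 20.3 ± 2.87 and 11.4 ± 0.379 CPM for Kit. No label says that the libraries are from separate mice; the p-values then cover the spread from library to library and no more, and that spread may be technical.

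With TMM, 9 of the 10 genes were higher in knockout and 1, Sdf2l1, was lower at an adjusted p under 0.05 (edgeR quasi-likelihood test), where 17.2% of all genes tested were higher and 14.4% lower. With total counts, 4 were higher (Calr, P4hb, Pdia6 and Pdia3) and 5 lower (Sdf2l1, Herpud1, Ddit3, Pdia4 and Atf4), where 4.24% of all genes were higher and 70.7% lower; Canx did not pass the test. Calr, P4hb, Pdia6 and Pdia3 were thus higher under both scalings, which held for 4.24% of all genes, and Sdf2l1 was lower under both, which held for 14.4%. All 2229 genes lower with TMM were also lower with total counts. All 656 genes higher with total counts were also higher with TMM. A call under both scalings is therefore not support from 2 separate tests. Pdia4, Atf4, Ddit3 and Herpud1 were called in opposite directions, higher by TMM and lower by total counts, as were 7.61% of all genes. When TMM factors were taken from abundant genes alone, the same 4 genes were higher and Herpud1 and Sdf2l1 lower, where 7.6% of all genes were higher and 54% lower. The groups of libraries did not overlap for any of the 10 genes with TMM, with knockout above in 9 and below in 1; over all genes 22.2% lay above and 24.4% below without overlap. With total counts, knockout lay above without overlap in 4 genes and below in 5, beside 4.85% and 76.1% of all genes. The median log2 fold change of the 10 genes was 0.84 with TMM and -0.29 with total counts, beside -0.09 and -1.22 over all genes. Relative to that median, 9 of the 10 lay above and Sdf2l1 below. The 2 scalings could hardly differ in this, since the change of scaling shifted nearly all genes by about the same amount. In bulk RNA, fewer cells of a type and less RNA per cell cannot be told apart.

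**Figure D1:**
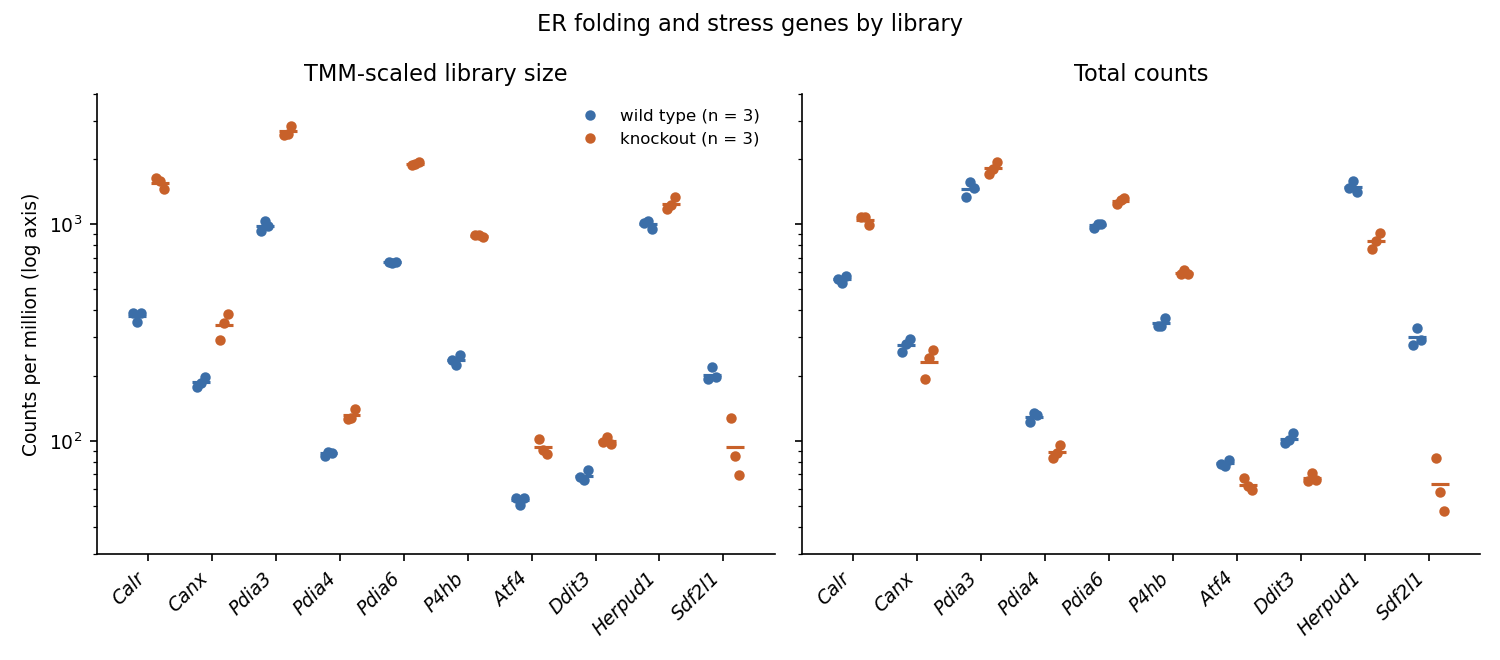
CPM of the 10 genes in each library, on a log axis, with TMM-scaled library sizes (left) and total counts (right). Points are libraries and bars are group means, with wild type in blue and knockout in orange (n = 3 each). The 3 knockout points of Calr, Pdia3, Pdia6 and P4hb lie above wild type in both panels, those of Sdf2l1 lie below in both, and those of Pdia4, Atf4, Ddit3 and Herpud1 change side between the panels.

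Calr encodes calreticulin, the soluble lectin chaperone and main calcium-binding protein of the ER lumen (ENSMUSG00000003814, chr8:84841850-84846934, minus strand, GRCm38). With TMM it stood at 389, 354 and 388 CPM in the 3 wild-type libraries and at 1629, 1576 and 1450 CPM in the 3 knockout libraries. Every knockout library was far above every wild-type library. The means were 377 ± 20.1 and 1552 ± 91.8 CPM (SD, n = 3), a 4.12-fold difference (log2 fold change 2.04, SE 0.07, edgeR adjusted p = 7.27e-08), the largest rise among the 10 genes. With total counts the values were 558, 536 and 578 CPM against 1076, 1080 and 987 CPM, still without overlap. That difference was 1.88-fold (log2 fold change 0.91, SE 0.06, edgeR adjusted p = 1.33e-06). A pseudogene, Calr-ps, is annotated, and how reads shared with it were counted is unknown here.

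Canx encodes calnexin, the membrane-bound partner of calreticulin that binds the same monoglucosylated glycans (chr11:50293961-50325673, minus strand). With TMM it stood at 178, 185 and 198 CPM in wild type and at 292, 350 and 386 CPM in knockout. The knockout libraries were again all higher but more spread out, and the difference was 1.83-fold (log2 fold change 0.87, SE 0.10, edgeR adjusted p = 0.000142). With total counts the values were 256, 281 and 294 CPM in wild type and 193, 240 and 262 CPM in knockout. These groups overlapped, since the highest knockout library passed the lowest wild-type library, and Canx did not pass the test (log2 fold change -0.26, SE 0.11, edgeR adjusted p = 0.0521). The 2 lectin chaperones therefore differed in how far they moved, whichever scaling was used.

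The promoters of both lectin genes, and that of Pdia6, carry the ER stress response element, the sequence bound by ATF6 and XBP1 with NF-Y. They are shown because these are the 3 of the 10 genes with an exact match to it (CCAAT, then 9 bases of any kind, then CCACG), searched on both strands from 250 bases before to 50 after each RefSeq gene start (GRCm38.p6, all 10 genes matched). The stretches run 5′ to 3′ on the gene's own strand, with the element in capitals; in Calr it reads on the opposite strand.
Calr, chr8:84847045-84847123 (minus strand): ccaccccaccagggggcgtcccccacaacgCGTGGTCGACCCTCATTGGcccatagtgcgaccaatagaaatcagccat
Canx, chr11:50325770-50325848 (minus strand): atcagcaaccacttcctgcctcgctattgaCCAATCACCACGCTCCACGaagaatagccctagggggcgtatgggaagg
Pdia6, chr12:17266461-17266539 (plus strand): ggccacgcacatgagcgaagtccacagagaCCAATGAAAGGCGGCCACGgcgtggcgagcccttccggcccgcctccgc
The element lies 144 to 162 bases before the Calr start, 127 to 145 before that of Canx and 80 to 98 before that of Pdia6. Of 32851 promoter windows, 39 (0.119%) hold an exact match. With up to 1 mismatch, 7 of the 10 genes match (Ddit3, Herpud1, Pdia3 and Pdia4 in addition), as do 1.5% of all windows. A match is a description of these letters, and no factor binding was measured.

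P4hb encodes the founding protein disulfide isomerase, which is also the beta subunit of prolyl 4-hydroxylase (chr11:120560298-120573253, minus strand). With TMM it stood at 235, 224 and 248 CPM in wild type and at 893, 891 and 868 CPM in knockout. The 3 knockout libraries were tightly grouped and far above the wild-type ones. The 3.75-fold difference (log2 fold change 1.91, SE 0.06, edgeR adjusted p = 5.79e-08) was second only to that of Calr among the 10 genes. With total counts, 337, 340 and 369 CPM stood against 589, 611 and 591 CPM, a 1.71-fold difference without overlap (log2 fold change 0.77, SE 0.06, edgeR adjusted p = 2.55e-06).

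Pdia6 encodes an isomerase that works with the chaperone BiP and is known to act on activated IRE1 (chr12:17266545-17284770, plus strand). With TMM its levels were 666, 661 and 671 CPM in wild type and 1868, 1888 and 1935 CPM in knockout. It was the steadiest of the 10 genes in wild type, with an SD of 5.17 on a mean of 666 CPM, and the 3 knockout libraries were all far above at 1897 ± 34.3 CPM. The knockout level was 2.85-fold higher (log2 fold change 1.51, SE 0.05, edgeR adjusted p = 7.27e-08). With total counts, 957, 1002 and 1000 CPM stood against 1234, 1294 and 1316 CPM, again without overlap but with a difference of 1.3-fold (log2 fold change 0.38, SE 0.05, edgeR adjusted p = 0.00011).

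Pdia3 encodes ERp57, the isomerase that calnexin and calreticulin recruit to glycoproteins and that also sits in the MHC class I loading complex (chr2:121413775-121438687, plus strand). With TMM it stood at 928, 1028 and 980 CPM in wild type and at 2581, 2609 and 2828 CPM in knockout. All knockout libraries were higher, by 2.73-fold (log2 fold change 1.45, SE 0.06, edgeR adjusted p = 2.57e-07). With total counts the values were 1333, 1560 and 1461 CPM against 1704, 1788 and 1924 CPM. The groups stayed apart, at 1.24-fold (log2 fold change 0.31, SE 0.07, edgeR adjusted p = 0.00268).

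Pdia4 encodes ERp72, an isomerase of the BiP-containing chaperone complex (chr6:47796141-47813430, minus strand). It was the least abundant of the 4 isomerases, at 85.1, 89.3 and 88 CPM in wild type and 126, 128 and 141 CPM in knockout with TMM. The groups did not overlap and differed by 0.59 on the log2 scale (SE 0.07, edgeR adjusted p = 0.00017). With total counts the order of the groups turned over, with 122, 135 and 131 CPM in wild type and 83, 88 and 95.9 CPM in knockout. There the log2 difference was -0.54 (SE 0.08, edgeR adjusted p = 0.000139). The isomerases thus divided into 3 that were higher under both scalings and Pdia4, whose direction followed the scaling.

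**Figure D2:**
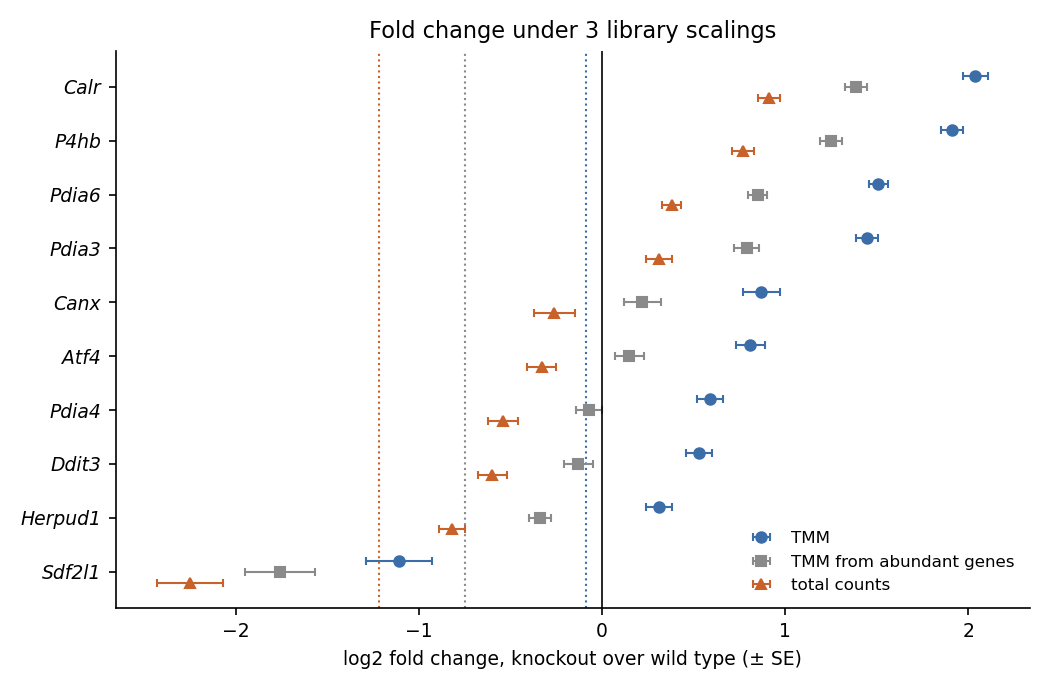
Log2 fold change of each gene, knockout over wild type, with its SE, under TMM (blue), TMM computed from abundant genes (grey) and total counts (orange); dotted lines mark the median of all 15474 genes tested under each. Calr, P4hb, Pdia6 and Pdia3 stay above 0 and Sdf2l1 stays below 0 under all 3, while Pdia4, Ddit3 and Herpud1 cross 0 with both other scalings and Canx and Atf4 cross it with total counts.

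Atf4 encodes the transcription factor whose translation rises when eIF2alpha is phosphorylated, so its RNA level is only part of its control (chr15:80255184-80257541, plus strand). With TMM it stood at 54.3, 50.6 and 54.6 CPM in wild type and at 102, 90.7 and 86.9 CPM in knockout, without overlap. The knockout level was 1.75-fold higher (log2 fold change 0.81, SE 0.08, edgeR adjusted p = 5.84e-05). With total counts, 78, 76.7 and 81.4 CPM stood against 67.1, 62.1 and 59.1 CPM, so that all knockout libraries were lower (log2 fold change -0.33, SE 0.08, edgeR adjusted p = 0.0033).

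Ddit3 encodes CHOP, the transcription factor that ATF4 induces and that is linked to cell death under lasting ER stress (chr10:127290774-127296288, plus strand). With TMM its levels were 67.8, 66.3 and 73.3 CPM in wild type and 98.6, 104 and 96.5 CPM in knockout. The rise was 1.44-fold (log2 fold change 0.53, SE 0.07, edgeR adjusted p = 0.000422), smaller than that of the other risen genes except Herpud1. With total counts the groups changed places, at 97.4, 101 and 109 CPM against 65.1, 71.3 and 65.7 CPM (log2 fold change -0.60, SE 0.08, edgeR adjusted p = 6.28e-05). Exons of Mars and Gm4189 on the other strand, and of another annotated Ddit3 entry, overlap those of Ddit3 by at most 105 bases each. No source used here says whether counting took strand into account, so reads in that overlap cannot be told apart.

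Herpud1 encodes an ER membrane protein that brings together components of ER-associated degradation (chr8:94386438-94395377, plus strand). It was the most abundant of the 10 genes per kilobase in wild type. With TMM its counts were 1016, 1037 and 945 CPM in wild type and 1167, 1223 and 1338 CPM in knockout. The groups were close but apart, and the rise of 1.24-fold (log2 fold change 0.31, SE 0.07, edgeR adjusted p = 0.00691) was the smallest of the 9. With total counts it was 1459, 1573 and 1408 CPM against 770, 838 and 910 CPM, a fall without overlap (log2 fold change -0.82, SE 0.07, edgeR adjusted p = 6.29e-06).

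Sdf2l1 encodes a lumenal protein that works with the co-chaperone ERdj3, the product of Dnajb11 (chr16:17130138-17132383, minus strand). With TMM it stood at 192, 218 and 196 CPM in wild type and at 127, 84.8 and 69.9 CPM in knockout. Every knockout library was below every wild-type library, and the 3 knockout libraries differed more among themselves than for any other of the 10 genes in proportion to their mean, at 93.9 ± 29.5 CPM. The level was 2.15-fold lower (log2 fold change -1.11, SE 0.18, edgeR adjusted p = 0.0016). With total counts, 276, 331 and 293 CPM stood against 83.8, 58.1 and 47.6 CPM, 4.75-fold lower (log2 fold change -2.25, SE 0.18, edgeR adjusted p = 3.89e-06). It was the gene among the 10 that was lower with TMM, and any gene lower with TMM was also lower with total counts.

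The promoters of Herpud1 and Sdf2l1 are shown because these paired stress-response genes moved apart and both carry a form of the second ER stress response element (ERSE-II: ATTGG, then 1 base of any kind, then CCACG, on either strand). Herpud1 matches it exactly and Sdf2l1 matches it with 1 mismatch on the opposite strand; capitals mark the element.
Herpud1, chr8:94386347-94386417 (plus strand): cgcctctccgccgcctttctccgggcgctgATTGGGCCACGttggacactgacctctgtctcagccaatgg
Sdf2l1, chr16:17132492-17132562 (minus strand): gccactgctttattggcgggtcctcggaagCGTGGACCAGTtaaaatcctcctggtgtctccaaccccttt
The element lies 42 to 52 bases before the Herpud1 start and 139 to 149 before that of Sdf2l1. An exact match is found in 12 of 32851 windows (0.0365%), and a match with up to 1 mismatch in 1.16%, Atf4 among them. Herpud1 was also the gene among the 10 with the amino acid response element bound by ATF4 and CHOP (TGATG, then 1 base of any kind, then AA, on either strand), which 3.95% of all windows hold. Calr, Canx, Pdia6 and the 7 other pathway genes with an exact first element included 6 that were higher, 1 lower and 3 not called with TMM, and 4, 4 and 2 with total counts. Herpud1 and Dnajb11, with an exact second element, were 1 higher and 1 lower with TMM and both lower with total counts. Herpud1 and the 9 other pathway genes with the amino acid response element were 3 higher, 3 lower and 4 not called with TMM, and 0, 9 and 1 with total counts in edgeR. These counts stand beside 17.2% higher and 14.4% lower of all genes with TMM, and 4.24% and 70.7% with total counts. Among the 1497 genes at least as abundant as Atf4, the lowest of the 10, 66.5% were higher and 8.15% lower with TMM. With total counts these shares were 19.5% and 70.4%. Some genes with an element, such as Trib3, were less abundant. A link between element and direction was not tested.

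Ratios of 2 genes within a library do not depend on how libraries are scaled. Calr stood at 2.18, 1.91 and 1.96 counts per Canx count in wild type and at 5.58, 4.51 and 3.76 in knockout, a 2.26-fold higher ratio (log2 difference 1.18). Pdia6 over Pdia4 was 7.83, 7.4 and 7.62 in wild type against 14.9, 14.7 and 13.7, a difference of 1.89-fold (log2 difference 0.92). The soluble lectin relative to the membrane-bound one, and Pdia6 relative to Pdia4, thus stood higher in every knockout library than in any wild-type library. Herpud1 over Sdf2l1 was 5.29, 4.75 and 4.81 against 9.2, 14.4 and 19.1, the largest difference of the 6 ratios at 2.76-fold (log2 difference 1.46). Pdia3 over P4hb lay the other way, at 3.95, 4.59 and 3.96 against 2.89, 2.93 and 3.26 (log2 difference -0.46). Ddit3 over Atf4 also lay lower, with 1.25, 1.31 and 1.34 in the wild-type libraries against 0.97, 1.15 and 1.11 (log2 difference -0.28). Calr over Hspa5, which encodes BiP, the major lumenal chaperone, stood at 0.153, 0.139 and 0.154 against 0.237, 0.23 and 0.196 (log2 difference 0.57). In none of the 6 ratios did the groups overlap. Each had a two-sided exact permutation p of 0.1, unadjusted and adjusted over the 6, which is the smallest that 3 against 3 libraries allow. The share of other gene pairs without overlap was not computed, so the separation cannot be called particular to these pairs. Among single genes, 22.2% lay above and 24.4% below without overlap with TMM, and 4.85% and 76.1% with total counts.

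**Figure D3:**
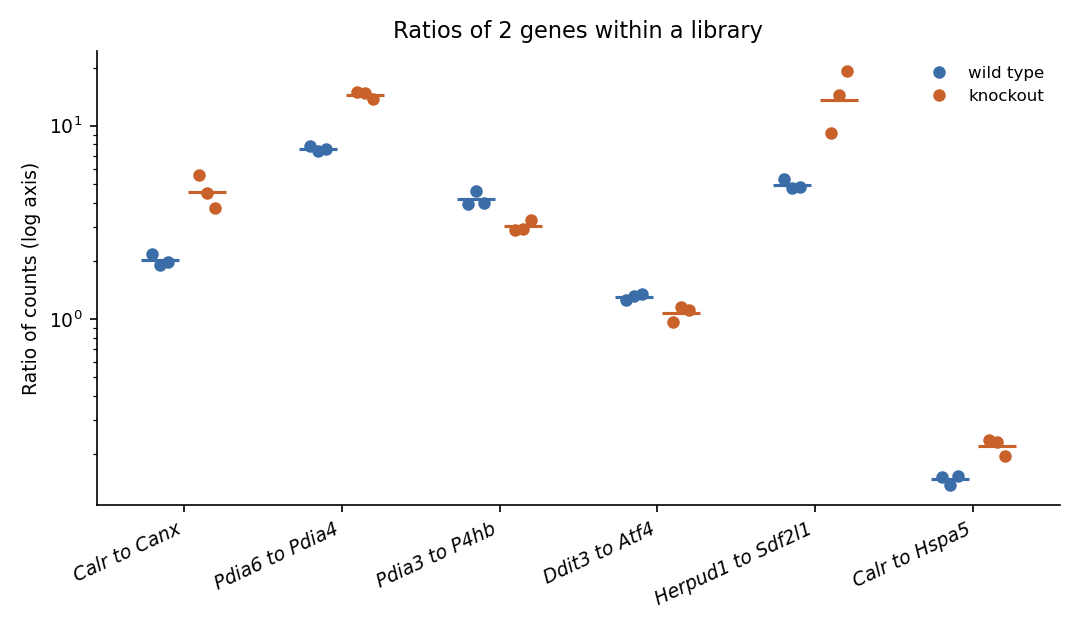
Ratio of the counts of 2 genes within each library, on a log axis, for the 6 pairs compared; points are libraries and bars are geometric group means, with wild type in blue and knockout in orange (n = 3 each). The knockout points of Calr to Canx (3.76 to 5.58) lie above those of wild type (1.91 to 2.18), those of Pdia3 to P4hb lie below, and no pair of groups overlaps.

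The order of the levels changed with genotype. Per kilobase of exon and with TMM, wild-type levels ran from Herpud1 at 428 ± 20.7 CPM per kb, then Pdia3 at 312 ± 16, Sdf2l1 at 183 ± 12.7 and Pdia6 at 178 ± 1.38, to Calr at 131 ± 6.98 and P4hb at 82.3 ± 4.15 (SD, n = 3). Ddit3, Canx, Pdia4 and Atf4 were the lowest, at 40.4 ± 2.15, 39.8 ± 2.08, 36.5 ± 0.895 and 22.5 ± 0.948 CPM per kb. Among neighbours in this order, the libraries of Sdf2l1 and Pdia6 overlapped, as did those of Ddit3 and Canx. In knockout Pdia3 came first at 851 ± 43.1 CPM per kb, followed by Calr at 539 ± 31.9, Herpud1 at 533 ± 37.3 and Pdia6 at 507 ± 9.15. On this scale these last 3 could not be ordered, since each overlapped the next. P4hb followed at 309 ± 4.78, then Sdf2l1 at 84.7 ± 26.6 and Canx at 73 ± 10, which overlapped, and Atf4 was again the lowest. The most abundant gene was the same on the deposited length-scaled values, with Herpud1 first in wild type at 737 ± 42.9 FPKM and Pdia3 first in knockout at 544 ± 32.8 FPKM. Below the first gene the order depended on the scale. Library scaling cannot reorder genes within a library, so the gene lengths used matter to this order. In knockout Pdia6 came second at 498 ± 14.9 FPKM, clear of Herpud1 at 404 ± 30.5 and Calr at 403 ± 19.8. Sdf2l1 came after Ddit3 and Canx there, at 47.6 ± 14.2 FPKM, and overlapped Canx.

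Abundant genes as a group were higher in knockout with TMM, and all 10 genes are abundant. Among the 1497 genes whose mean was at least the 73.1 CPM of Atf4, the lowest of the 10, 66.5% were higher and 8.15% lower with TMM, and 19.5% were higher and 70.4% lower with total counts. The median log2 fold change of these genes was 0.49 with TMM and -0.65 with total counts. Of the 10 genes, 8 lay above that median, and Herpud1 and Sdf2l1 lay below it. This was again the same with either scaling because the shift is common to nearly all genes. A count of 9 higher genes out of 10 with TMM is thus to be read beside 66.5% at this abundance, and the lower Sdf2l1 beside 8.15%.

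**Figure D4:**
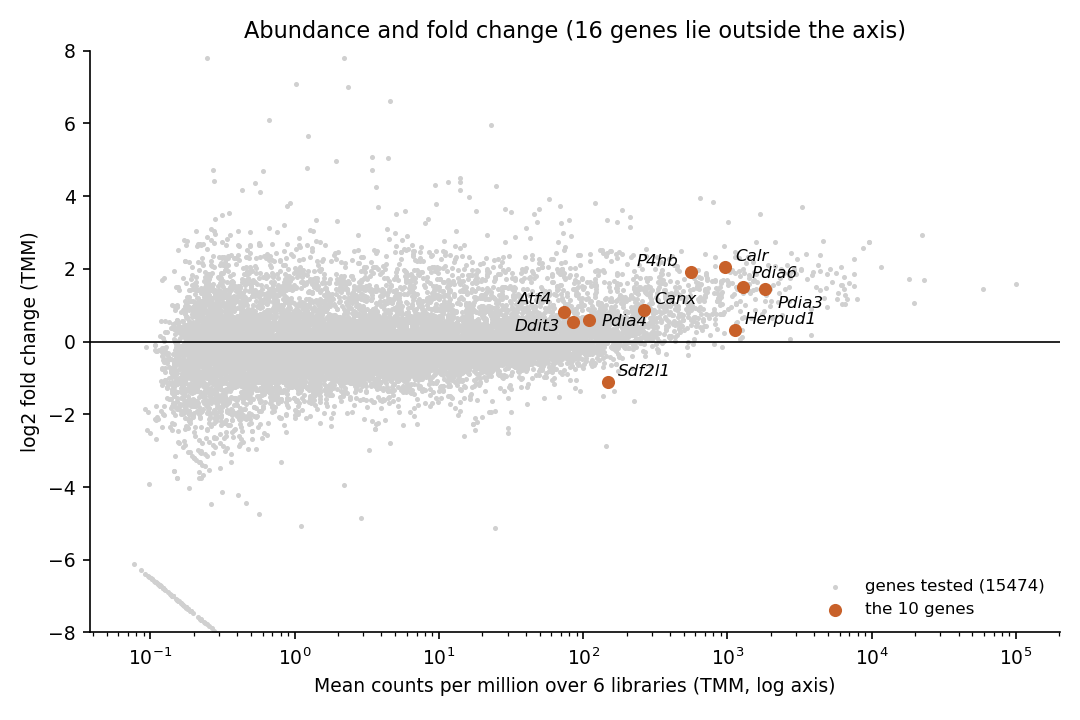
Log2 fold change, knockout over wild type with TMM, against the mean CPM over the 6 libraries (log axis), for the 15474 genes tested (grey) and the 10 genes (orange). Most grey points right of the 73.1 CPM of Atf4 lie above 0, with a median of 0.49, and Sdf2l1 lies below 0 among them; with total counts this median was -0.65.

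With TMM, many other genes had a profile like that of the 10. Of 5408 genes with a mean of at least 10 CPM, 503 had a Pearson r of at least 0.99 with the mean standardised log2 CPM of the 10 genes over the 6 libraries. The 5 most alike were Prg3 (an eosinophil granule protein, r = 0.9998), Dad1 (a subunit of the oligosaccharyltransferase, 0.9996), Gm28661 (0.9996), mt-Co2 (a mitochondrially encoded oxidase subunit, 0.9996) and Atp5g1 (a subunit of ATP synthase, 0.9995). The 6 points fall into 2 groups and share library depth and composition. These values thus describe which genes separate the groups with a like pattern over the libraries. The size of the change does not enter r. Within the 10 genes, r with their own mean was at least 0.916, the value of Herpud1, for 9 genes and was -0.918 for Sdf2l1.

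Other genes of the pathway were read from 7 lists with 108 symbols, of which 105 were tested; Fkbp14 was not analysed here, and Cth and Cebpb had too few counts. With TMM, 36 were higher, 23 lower and 46 not called, with a median log2 fold change of 0.11. Of all genes tested, 17.2% were higher and 14.4% lower with TMM, and the median was -0.09. With total counts, 6 were higher, 88 lower and 11 not called, with a median of -1.03, where 4.24% of all genes were higher and 70.7% lower and the median was -1.22. The same shares are the background of each list that follows. The 6 higher with total counts, all of them also higher with TMM, were Hspa5, Hsp90b1, Ppib, Sec61b, Ern1 and Phgdh. The 23 lower with TMM were all lower with total counts too.

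The 2 most abundant lumenal chaperones of the lists were higher under both scalings, as Calr and Pdia6 were. Hspa5 stood at 2533, 2545 and 2520 CPM in wild type and 6884, 6857 and 7409 CPM in knockout with TMM (log2 fold change 1.48, SE 0.05, edgeR adjusted p = 9.6e-08), and at a log2 fold change of 0.34 with total counts. Hsp90b1, which encodes GRP94, stood at 348, 379 and 389 CPM against 1027, 988 and 1033 CPM (log2 fold change 1.45, SE 0.06, edgeR adjusted p = 2.3e-07), and at 0.32 with total counts. Both were without overlap between groups. In the same list 2 co-chaperones were lower, as Sdf2l1 was. Dnajb11 fell from 42.1, 58.1 and 50 CPM to 11.4, 10.3 and 7.17 CPM (log2 fold change -2.37, SE 0.18, edgeR adjusted p = 8.48e-06; -3.51 with total counts). Dnajb9, which encodes ERdj4, a regulator of IRE1, fell by less and with overlapping groups (log2 fold change -0.64, SE 0.19, edgeR adjusted p = 0.0311), and lost the call without wild-type library 2 or 3 or knockout library 2 or 3 (adjusted p = 0.103, 0.116, 0.104 and 0.0808) and with a correction for length and GC content (0.145). Of the 13 genes in that list, 3 were higher, 2 lower and 8 not called with TMM, and 2 were higher and 11 lower with total counts.

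The list of stress sensors and eIF2alpha kinases, which also holds Xbp1, was divided. Ern1 stood at 4.22, 4.05 and 4.24 CPM in wild type and at 10.3, 13.1 and 12.1 CPM in knockout (log2 fold change 1.51, SE 0.13, edgeR adjusted p = 2.47e-05), and passed the test narrowly with total counts (0.37, adjusted p = 0.0407). Its target Xbp1 was lower, at 109, 143 and 123 CPM against 65.1, 53.4 and 35.3 CPM (log2 fold change -1.29, SE 0.20, edgeR adjusted p = 0.000933; -2.43 with total counts). Gene counts do not separate spliced from unspliced Xbp1. With TMM, Eif2ak3 (log2 fold change 0.09, adjusted p = 0.904) and Atf6 (-0.03, adjusted p = 0.908) did not pass the test. Their SEs in the authors' comparison were 0.58 and 0.22. For Eif2ak3 above all, missing the test does not show an unchanged level. With total counts Atf6 was lower (-1.17, adjusted p = 0.000198), as it was with factors from abundant genes (-0.69, adjusted p = 0.00802), and Eif2ak3 did not pass (-1.05, adjusted p = 0.0582). Eif2ak2, the kinase PKR, was lower with TMM (-0.80, SE 0.18, adjusted p = 0.00898; 0.0868 with the length and GC correction) and at -1.93 with total counts. Of the 10 genes in the list, 2 were higher, 2 lower and 6 not called with TMM, and 1 was higher and 8 lower with total counts.

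Among 16 other oxidoreductases and prolyl isomerases, 4 were higher, 4 lower and 8 not called with TMM, and 1 was higher and 14 lower with total counts. Ppib, which encodes cyclophilin B, was higher under both scalings, from 99.5, 80.5 and 92.9 CPM to 261, 260 and 243 CPM with TMM (log2 fold change 1.48, SE 0.09, edgeR adjusted p = 1.5e-06). Ero1l, the oxidase that recharges P4hb, was lower under both, from 31.8, 39.5 and 34.4 CPM to 13.2, 7.15 and 7.34 CPM with TMM (log2 fold change -1.93, SE 0.22, edgeR adjusted p = 0.000145). The isomerase P4hb and its oxidase thus lay on opposite sides. Erp29, a chaperone of the same fold family, was higher with TMM (log2 fold change 1.08, SE 0.08, adjusted p = 6.94e-06) and at -0.05 with total counts.

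In translocation and signal peptide cleavage, 8 of 12 were higher and 1 lower with TMM, with a median log2 fold change of 0.50, and 1 was higher and 9 lower with total counts. Sec61b, a subunit of the translocon, had log2 fold changes of 1.31 with TMM and 0.18 with total counts (adjusted p = 2.16e-06 and 0.0384). Ssr2 and Sec61g had 1.18 and 1.14 with TMM and 0.04 and 0.01 with total counts, where neither passed the test. In glycan processing, 6 of 11 were higher and 3 lower with TMM, with a median of 0.49, and 0 were higher and 9 lower with total counts in edgeR. Ddost, Dad1 and Rpn2, all oligosaccharyltransferase subunits, had log2 fold changes of 1.17, 1.03 and 0.96 with TMM and of 0.04, -0.10 and -0.17 with total counts. Both medians lie near the 0.49 of the 1497 abundant genes, of which 66.5% were higher with TMM, a share near that of 8 of 12. These lists also hold genes below that abundance. The lowest mean was 21.1 CPM in translocation and 14.7 CPM in glycan processing (TMM).

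In ER-associated degradation, 4 of 22 genes were higher and 8 lower with TMM, with a median log2 fold change of -0.33, and 0 were higher and 20 lower with total counts. Vcp, the ATPase that extracts proteins from the membrane, was slightly higher with TMM (log2 fold change 0.30, SE 0.06, adjusted p = 0.0034) and lower with total counts (-0.84). Its cofactor genes Nploc4 and Ubxn4 were lower under both, at -0.70 and -1.14 with TMM (adjusted p = 0.00192 and 0.000296). Of 21 tested targets of ATF4 and CHOP, 9 were higher and 3 lower with TMM, with a median of 0.33, and 1 was higher and 17 lower with total counts. Phgdh, the entry enzyme of serine synthesis, was higher under both, by 2.84-fold with TMM (adjusted p = 1.35e-06) and by a log2 fold change of 0.37 with total counts (adjusted p = 0.00095). Ppp1r15a, which encodes GADD34 and reverses eIF2alpha phosphorylation, followed Atf4 and Ddit3, at 0.73 with TMM and -0.41 with total counts, and Slc3a2, the heavy chain of amino acid transporters, likewise, at 0.74 and -0.39. Asns, asparagine synthetase, was lower under both (-0.40 and -1.53; adjusted p = 0.0299 with TMM). That call was lost without wild-type library 1 or 2 or knockout library 1 or 2 (adjusted p = 0.0763, 0.137, 0.0866 and 0.053) and with the length and GC correction (0.212). Trib3, a pseudokinase induced by CHOP, lay under 2 CPM in every library and had a 2.95-fold rise (SE 0.51 on the log2 scale, adjusted p = 0.0428) whose call was lost without any of the wild-type libraries (adjusted p = 0.0759, 0.0989 and 0.129) and without knockout library 1 or 2 (0.116 and 0.155).

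**Figure D5:**
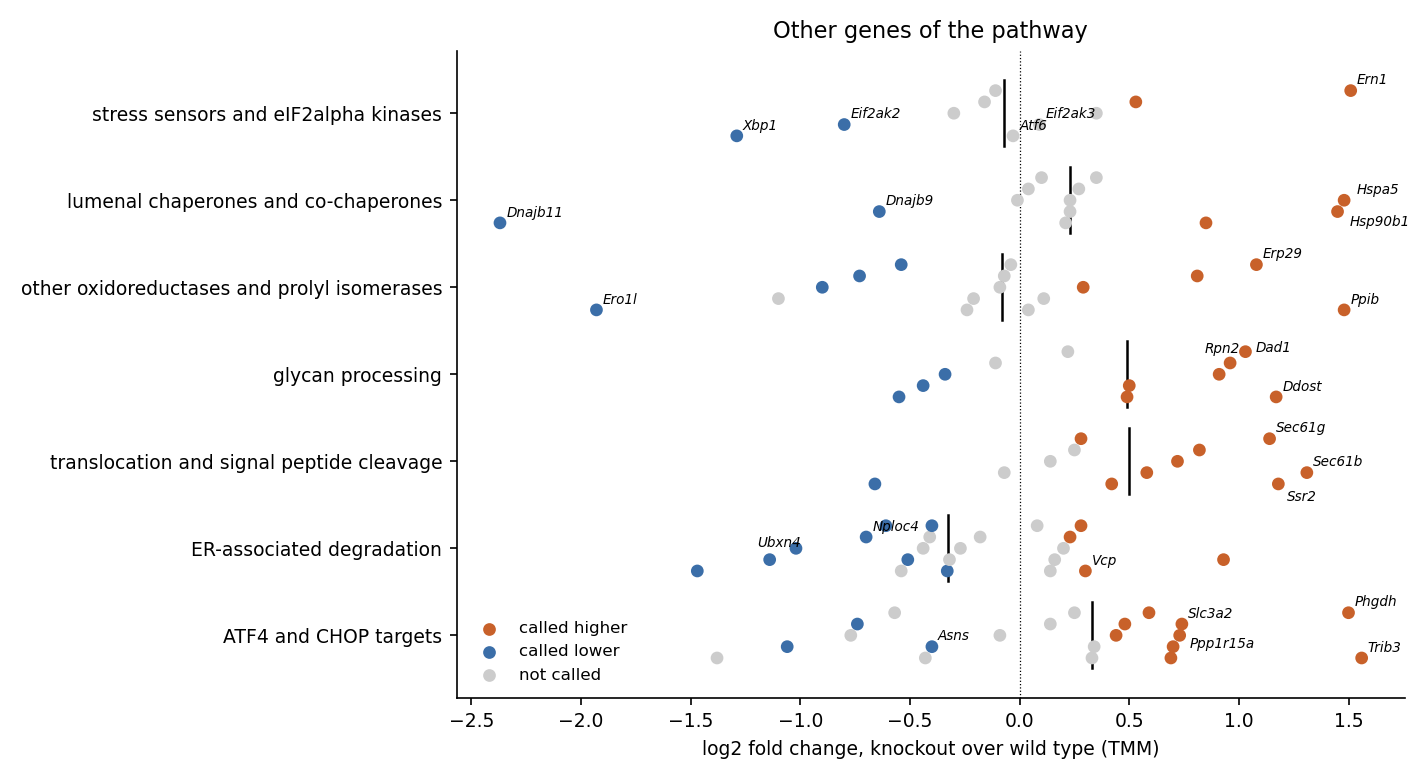
Log2 fold change, knockout over wild type with TMM, of the 105 other pathway genes tested, by list; orange points were called higher, blue points lower and grey points were not called, and black bars are list medians. Translocation (median 0.50) and glycan genes (0.49) lie mostly right of 0 and degradation genes (-0.33) mostly left; with total counts all 7 medians were below 0.

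Summed markers of granule-forming cells were higher in knockout under both scalings. The 10 genes summed to 3811 to 3913 and 8882 to 9199 CPM with TMM. With total counts their sums overlapped, at 5475 to 5937 and 5865 to 6258 CPM. The summed level of 11 neutrophil and promyelocyte markers was 84913 to 95264 CPM in wild type and 265247 to 281127 CPM in knockout with TMM, and 128830 to 136843 against 181771 to 185617 CPM with total counts; 7 of the 11 were higher with TMM and 5 with total counts, where 3 were lower. Mpo, myeloperoxidase, also made by granulocyte-monocyte progenitors, went from 49728 ± 2056 to 149546 ± 4268 CPM with TMM and from 73631 ± 2165 to 100953 ± 1853 CPM with total counts (SD, n = 3). The 9 eosinophil, basophil and mast cell markers summed to 5848 to 7005 and 42341 to 48026 CPM with TMM, and to 8873 to 10062 and 29016 to 31710 CPM with total counts; 6 of the 9 were higher and 0 lower with TMM, and 3 were higher and 3 lower with total counts in edgeR. Prg2, the eosinophil major basic protein, stood at 5154 ± 595 and 39672 ± 2838 CPM with TMM and at 7619 ± 660 and 26764 ± 1396 CPM with total counts. The 3 higher under both scalings were Prg2, Epx and Prg3, so the sum did not describe the basophil and mast cell markers. Of those, Cpa3 and Fcer1a were not called with TMM (log2 fold change 0.31 and 0.25). Both were lower with total counts (-0.83 and -0.89). Ly6g, a marker of mature neutrophils, was at 0.192 ± 0.167 and 0.256 ± 0.355 CPM with TMM. The part of these cells in the results was not tested.

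Plasma cell markers summed to 611 to 685 CPM in wild type and 939 to 1131 CPM in knockout with TMM, and to 911 to 1024 and 620 to 769 CPM with total counts. With TMM nearly all of it was Jchain, at 641 ± 37.8 and 992 ± 108 CPM, a rise by TMM and a fall by total counts. Mzb1 was at 7.41 ± 1.25 and 7.44 ± 0.427 CPM and Sdc1 at 1.88 ± 0.616 and 1.56 ± 0.602 CPM. Of the 8 markers, Jchain was higher, Slamf7 lower and 6 not called with TMM, with a median log2 fold change of -0.13. Immunoglobulin genes took 2.67 to 2.75% of counts in wild type and 3.49 to 3.66% in knockout. Among the stem and progenitor markers, Ly6a was higher and Meis1 and Hlf were lower with TMM, and all 3 were lower with total counts. The 11 summed to 171 to 176 and 174 to 182 CPM with TMM, and to 245 to 267 and 118 to 125 CPM with total counts. Of 8 erythroid markers, the globin genes Hbb-bs and Hba-a1 were higher and Klf1 and Rhd lower under both scalings. Their sum, 898 to 1185 and 2916 to 3502 CPM with TMM and 1362 to 1703 and 1983 to 2312 CPM with total counts, is mostly globin. B cell markers (8 genes, 5 lower and 0 higher with TMM in edgeR) summed to 110 to 132 and 84.3 to 96.6 CPM with TMM, and to 164 to 189 and 57.7 to 65.7 CPM with total counts. T and NK cell markers summed to 14.3 to 15.6 and 8.84 to 9.71 CPM with TMM and to 21.4 to 23.6 and 6.06 to 6.61 CPM with total counts. Of the 6 tested, Lck was lower and 5 were not called with TMM, with a median log2 fold change of -0.49. Monocyte, macrophage and dendritic cell markers summed to 219 to 226 and 148 to 174 CPM with TMM and to 315 to 344 and 101 to 115 CPM with total counts. Of these 8, Irf8 and Cd68 were lower and 6 were not called with TMM. The median log2 fold change was 0.05, so the lower TMM sum did not describe that list. The megakaryocyte sum lay higher in knockout with TMM, at 152 to 163 and 170 to 191 CPM, and lower with total counts, at 231 to 234 and 115 to 130 CPM. Of its 6 markers, Pf4 was higher, Gp1bb lower and 4 not called with TMM. Their median log2 fold change was -0.31, so the sum did not describe the list. The 2 stromal and endothelial markers found summed to under 1 CPM in every library. The part of these cells in the results was not tested either.

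The authors' deposited table of their own comparison places Calr (log2 fold change 2.05), Pdia3 (1.46), Pdia6 (1.52) and P4hb (1.91) among its UP genes and Sdf2l1 (-1.10) among its DOWN genes. The other 5 are STABLE in the authors' deposited table, with log2 fold changes from 0.32 for Herpud1 to 0.88 for Canx and adjusted p-values of at most 0.000182, since that class also holds genes that changed by less than a log2 unit.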

How the data were processed

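RNA was sequenced from 6 libraries, 3 wild type and 3 knockout, made with a TruSeq RNA kit and run on a NovaSeq instrument, per the labels' protocols. The authors deposited raw read counts per gene and library and their own DESeq2 comparison. The authors also deposited length-scaled values, computed by them before deposit without a stated unit, and these were taken as FPKM. For each of the 10 genes these values kept a near-constant ratio to total-count CPM over the 6 libraries. Divided by CPM per kilobase of the exon lengths used here, they did not give 1 constant for all genes. Wild-type means of Sdf2l1 were 226 FPKM and 300 CPM, over 1108 bases. Those of Ddit3 were 96.2 FPKM and 102 CPM, over 1713 bases. The unit thus remains an assumption. Build mm10 and the tools HISAT2 2.2.1, featureCounts 2.0.1, fastp 0.22.0 and DESeq2 1.32.0 stand in the submitters' processing notes, without order or options. In the authors' deposited table, the log2 fold changes and their errors, the p-values, the mean signal (counts over size factors) and the test score (fold change over its error) come from their comparison; the log2 fold changes, adjusted p-values and classes were used, as a description.

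IDs were matched to GENCODE vM21 of GRCm38 (18457 of 18491). Counts were tested with edgeR 4.0.16 in R 4.3.3: filterByExpr (15474 genes kept), TMM, glmQLFit and glmQLFTest with group as the term, two-sided, Benjamini-Hochberg over all genes tested, called at an adjusted p under 0.05. The SE is the log2 fold change over the square root of the F statistic. The fit was repeated with total counts and under 15 other settings with limma 3.58.1, DESeq2 1.42.0 and mgcv 1.9.3 among the tools. The procedure was tested on simulated data. No difference in composition between groups was built into them, so that test cannot say which scaling is right for these libraries. Promoter windows came from RefSeq (GRCm38.p6). No 2 libraries of a group agreed within sampling noise. Named pathway genes were a fixed set of 10 and up to 3 called genes of lowest p per list with a mean of at least 1 CPM; markers and genes most alike were also named. The 10 genes and all lists were chosen with earlier results of these data known. The result of 1 marker gene is not reported here.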

Additional observations from a re-analysis of the deposited data

How the results depend on the processing

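Of 16 other settings, 2 changed the calls of the 10 genes: total counts, and TMM factors from genes of at least 100 CPM, an alternative chosen after seeing the data. With total counts 4 were higher and 5 lower, and with the abundant-gene factors 4 higher and 2 lower. The log2 fold changes of these and the 26 named pathway genes that changed sign with total counts were those of Canx (-0.26), Pdia4 (-0.54), Atf4 (-0.33), Ddit3 (-0.60), Herpud1 (-0.82), Erp29 (-0.05), Dad1 (-0.10), Rpn2 (-0.17), Vcp (-0.84), Slc3a2 (-0.39) and Ppp1r15a (-0.41), and of Eif2ak3 (-1.05), called under neither. With the abundant-gene factors they were those of Pdia4 (-0.07), Ddit3 (-0.13), Herpud1 (-0.34), Vcp (-0.36) and the uncalled Eif2ak3 (-0.57), and Canx (0.22), Atf4 (0.15), Slc3a2 (0.08), Ppp1r15a (0.07) and Trib3 (0.91) lost their calls. Which scaling is nearer to RNA per cell was not tested. Over all genes, total counts called 656 higher and 10936 lower and the abundant-gene factors 1176 and 8350, against 2669 and 2229 with TMM. A correction for length and GC called 3159 and 1352, and 2931 and 1082 with the replicate block. Replicate numbers did not pair the libraries (same-number r of 0.041, -0.0051 and 0.0477); with the replicate block 2467 genes were called higher, 1906 lower, and 9 and 1 of the 10, and 2 of 26 named pathway genes lost a call (Dnajb9 and Trib3, adjusted p = 0.061 and 0.0561). The cause of these moves was not tested. Leaving out 1 library gave 2226 to 2542 higher and 1356 to 2142 lower genes, the lowest being 1356 without wild-type library 2 and 1419 without wild-type library 3, and kept 9 and 1 of the 10. The smallest rise, of Herpud1, ranged from 0.26 to 0.36 (edgeR adjusted p up to 0.0374), and Sdf2l1 from -1.39 to -0.94. The log2 ratio of Calr to Canx was 1.03 or more, and those of the other pairs ranged, for Pdia6 to Pdia4 from 0.90 to 0.96, Pdia3 to P4hb from -0.51 to -0.39, Ddit3 to Atf4 from -0.32 to -0.20, Herpud1 to Sdf2l1 from 1.22 to 1.75 and Calr to Hspa5 from 0.51 to 0.65. Leaving a library out gave 2 against 3 with no exact test.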
